A study of Mus musculus with 10 samples.

Results

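The interferon response and nucleic acid sensing genes were followed in BMEL cells, a bipotential cell line from mouse embryonic liver. The list holds 35 genes: sensors of foreign nucleic acid, the adaptors and transcription factors behind them, the type I interferon receptor, and genes and chemokines that interferon induces. Members were the genes with a probe set that the array's annotation gives exactly 1 of the 35 symbols. This held for 33 genes, of 18193 genes with such a probe set in all. The only Isg15 probe set carries several symbols, and Ifi44 was not analysed here. Each gene was read from its brightest probe set by the mean over all 10 arrays, and other probe sets are given beside it for some genes.

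One group of 5 arrays came from cells transfected with a locked nucleic acid (LNA) oligonucleotide antisense to miR-30a. The other 5 came from cells transfected with a scrambled control oligonucleotide. All cells received an oligonucleotide with Oligofectamine, and no untransfected group was analysed here, so the values compare 2 transfected groups. The labels give neither the dose, nor the time after transfection, nor whether the replicates were separate cultures, so the spread that enters each p-value is that among these 10 arrays and could be technical.

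Ddx58 (RIG-I) and Ifih1 (MDA5) are cytosolic RNA helicases that bind double-stranded RNA and signal through the mitochondrial adaptor Mavs, while Tlr3 reads double-stranded RNA in endosomes. Both routes activate Irf3 and Irf7, which switch on type I interferon genes. Interferon binds the receptor of Ifnar1 and Ifnar2, and a complex that holds Stat2 and Irf9 then binds the interferon-stimulated response element, a repeated GAAA motif, in the promoters of antiviral genes. Transfected double-stranded RNA is a known trigger of these sensors. Whether the oligonucleotides used here act on them was not tested.

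The oligonucleotide's target is shown first, since its seed sets which transcripts a microRNA can pair with. The mature sequences in RefSeq (GRCm38.p6) that share the seed of miR-30a-5p include miR-30c-5p and miR-30e-5p, and capitals mark the seed, bases 2 to 8. The miR-30a-5p sequence lies at chr1:23272274-23272295 on the plus strand.
mmu-miR-30a-5p: uGUAAACAuccucgacuggaag
mmu-miR-30c-5p: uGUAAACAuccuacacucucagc
mmu-miR-30e-5p: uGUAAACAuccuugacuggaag

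Promoters are shown next, since that element lies in those of several of the genes. RefSeq promoters, 250 bases before to 50 after a start site, were matched for 28 of the 35 genes and searched on both strands for GAAANNGAAA, overlapping matches included. At least 1 match was found for 12 of them, against 3.44% of all 32851 promoters of that length. A match lay before the start for 9 genes, against 2.98% of all promoters. For Ifih1, Ddx58 and Eif2ak2 the match lay only after the start. A match is a description of the letters, not evidence of binding. Below, capitals mark the matches (TTTCNNTTTC where the match is on the other strand). The stretches upstream of the start of 6 of those 9 genes are printed 5′ to 3′ along the gene. They lie at chr19:34640765-34640833 (Ifit1, plus strand), chr19:34583353-34583436 (Ifit3, plus), chr5:120907526-120907565 (Oas1a, minus), chr8:71537567-71537622 (Bst2, minus), chr12:26456543-26456592 (Rsad2, minus) and chr5:92349073-92349122 (Cxcl10, minus), all in GRCm38.p6.
Ifit1: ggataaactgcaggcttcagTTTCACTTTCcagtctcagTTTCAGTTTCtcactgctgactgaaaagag
Ifit3: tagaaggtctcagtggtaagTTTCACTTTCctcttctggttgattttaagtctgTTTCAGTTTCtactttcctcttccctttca
Oas1a: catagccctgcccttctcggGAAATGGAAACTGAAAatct
Bst2: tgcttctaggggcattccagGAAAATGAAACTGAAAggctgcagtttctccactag
Rsad2: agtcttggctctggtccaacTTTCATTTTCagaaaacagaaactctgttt
Cxcl10: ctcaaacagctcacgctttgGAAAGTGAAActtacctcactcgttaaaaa

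The authors deposited expression on a log2 scale for each probe set. Background was set at 4.56 on that scale, with 40% of probe sets under it. The 95% level of 43 olfactory receptor probe sets, genes not expected in liver epithelium, was 4.65, and 9.3% of these probe sets exceeded 4.56. Above background in both groups were 23 of the 33 genes (69.7%, against 68.8% of all genes), 9 were below it in both, and Usp18 lay across it (4.58 in antisense and 4.53 in scrambled arrays, as means). The count was also 23 at the olfactory receptor level, 31 at the 20% level and 14 at the 60% level. At 4.56, all 3 adaptors, all 5 transcription factors, both receptor subunits and both chemokines were above background. Of the 6 sensors 4 were above background, and of the 15 measured stimulated genes 7 were. The stimulated genes Ifit1, Ifit3, Oasl1, Oasl2, Mx1, Rtp4 and Parp14 were below it in both groups. This division by role depends on the level chosen. At the 20% level the stimulated genes were above it in both groups except Ifit1 and Oasl2, and at the 60% level Irf7, Oas1a, Cxcl10 and Ccl5 were below it, as were the stimulated genes except Ifi35 and Bst2. Of the 12 genes with a promoter match 9 were above background in both groups, 2 (Ifit1 and Ifit3) were below it and 1 (Isg15) was not measured. Of those with a promoter and no match, 12 were above and 3 below. No promoter was matched for Dhx58, Mx1, Mx2, Usp18, Rtp4, Parp14 and Ccl5. Of these, Dhx58, Mx1, Rtp4 and Parp14 were below background in both groups, so these counts leave out several dim genes. Among the genes with 2 upstream matches each, Ifit1 and Ifit3 were below background and Oas1a and Bst2 above it. The genes with 1 match were all above it. Probe sets differ in their affinity, so these levels say whether a gene was above background and do not rank the genes.

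**Figure D1:**
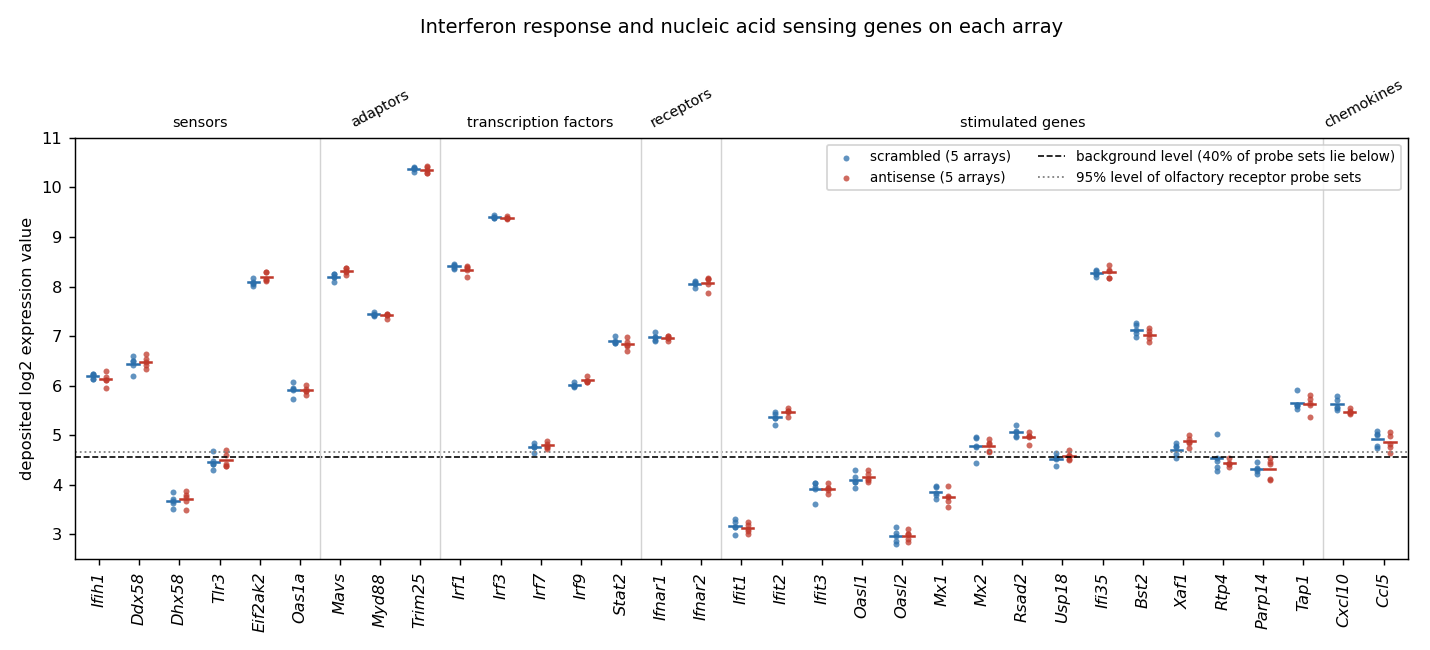
Deposited log2 expression value (vertical axis) of 33 genes on each of 10 arrays, grouped by role; points are arrays (blue scrambled, red antisense), short bars are group means, and the lines mark the 2 background levels. The adaptors, transcription factors, receptors and chemokines have group means above the dashed line at 4.56, while 7 stimulated genes have both means below it.

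Of the 23 genes tested, those with a mean above background, none rose and none fell with the antisense oligonucleotide (limma, adjusted p from 0.234), while 1.53% of the 12633 genes tested were called. None passed with the replicate number as a block either (3.05% of all genes called, lowest adjusted p of a member 0.0845, for Cxcl10), nor with limma's trend option (2.49% called). At an unadjusted p under 0.05 there were 5 of 23 (21.7%), 4 higher and 1 lower, against 12.9% of all genes. The median difference, antisense minus scrambled on the log2 scale, was -0.01, with 10 genes above 0 and 13 below, and the median over all genes was 0.008. The median size of a difference was 0.056 for the members and 0.047 for all genes, and the median SD within a group was 0.0855 and 0.0864.

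The intervals of these differences are narrow. For all 23 tested genes the 95% confidence interval of the fit lay inside a 1.5-fold difference in either direction, as it did for 99.2% of all genes tested. The widest upper bound was 1.24-fold, for Xaf1, and the widest lower bound 1.21-fold, for Cxcl10. Each interval is that of the brightest probe set and leaves out differences between probe sets of a gene. Other probe sets above background lay outside their gene's interval for Trim25 (0.21), Eif2ak2 (-0.08) and Ifnar2 (0.15). The rest lay inside. The 10 genes left out of the test as dim had differences from -0.11 to 0.05, with no test. On arrays, signal near background compresses differences, so the values of dim genes bound little. Tested genes close to background share this limit, among them Irf7 (4.78), Mx2 (4.79), Xaf1 (4.79) and Ccl5 (4.89), as means over all arrays.

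**Figure D2:**
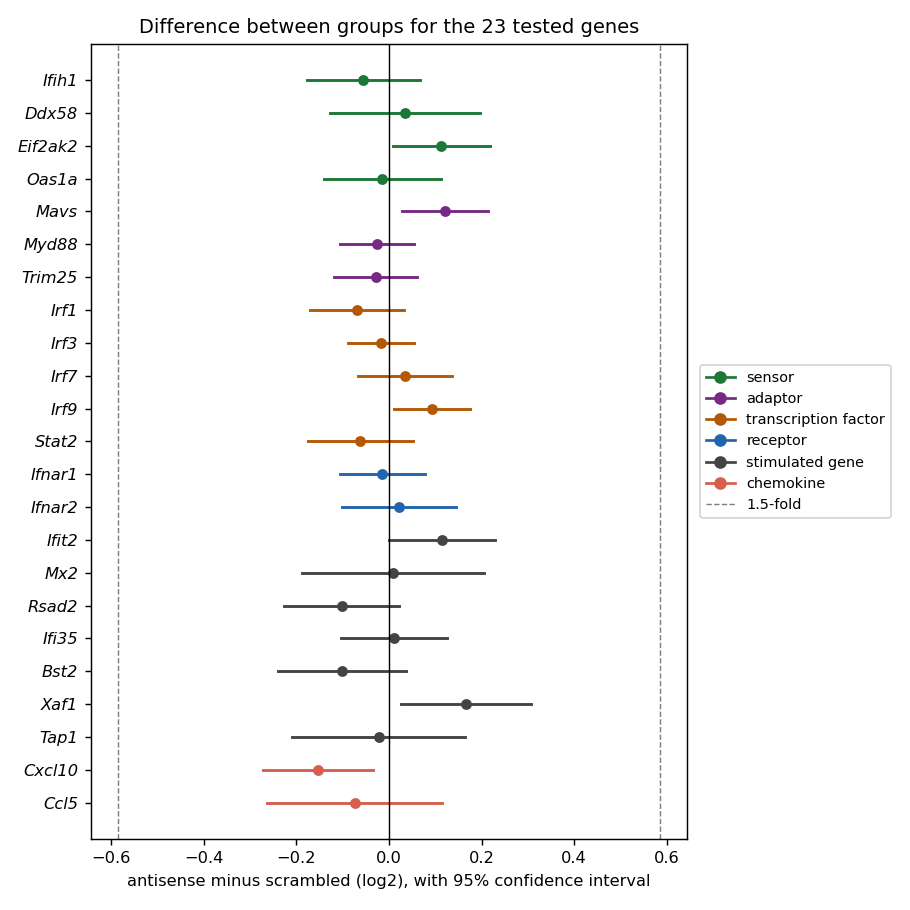
Difference of the 23 tested genes, antisense minus scrambled on the log2 scale (horizontal axis), with points for the fitted difference and lines for the 95% confidence interval, coloured by role. Every interval lies inside the dashed lines at 1.5-fold, and those of Eif2ak2, Mavs, Irf9, Xaf1 and Cxcl10 do not reach 0 before adjustment.

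Among the sensors, Ifih1 was at 6.12, 5.95, 6.18, 6.12 and 6.29 in antisense replicates 1 to 5 and at 6.23, 6.13, 6.14, 6.21 and 6.23 in scrambled replicates 1 to 5. The lowest and the highest value were both antisense arrays, so the groups overlap. Its difference was -0.06 (SE 0.0564, limma adjusted p = 0.761). Ddx58 was at 6.64, 6.33, 6.53, 6.41 and 6.47 in antisense and at 6.50, 6.42, 6.51, 6.20 and 6.59 in scrambled arrays. The groups overlap, with a difference of 0.03 (SE 0.0747, adjusted p = 0.915), and a second Ddx58 probe set above background was at -0.01.

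Eif2ak2 encodes PKR, a kinase that is activated by double-stranded RNA and halts translation. It was at 8.12, 8.12, 8.15, 8.30 and 8.29 in antisense and at 8.08, 8.06, 8.02, 8.17 and 8.09 in scrambled arrays. The antisense value was higher in 5 of 5 pairs of the same number, but scrambled replicate 4 exceeded 3 antisense arrays. No label says what the numbers mark, and the share of all genes with 5 of 5 was not counted. The groups differed by 0.11 (SE 0.0484), with limma adjusted p = 0.341 (0.158 with the replicate block). Its other probe sets above background were at -0.08 and 0.14, so the sign depends on the probe set.

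Oas1a, an enzyme that makes 2-5A, the second messenger that activates RNase L, averaged 5.90 ± 0.068 (SD, n = 5) in antisense and 5.92 ± 0.12 (SD, n = 5) in scrambled arrays. Tlr3 and Dhx58 (LGP2, a helicase that modulates Ifih1 and Ddx58) were below background in both groups. Tlr3 was at 4.59, 4.41, 4.70, 4.39 and 4.38 in antisense and at 4.68, 4.43, 4.41, 4.49 and 4.29 in scrambled arrays. For Tlr3 antisense replicates 1 and 3 and scrambled replicate 1 lay above the background level, though neither mean did. Dhx58 was at 3.87, 3.75, 3.67, 3.50 and 3.80 in antisense and at 3.72, 3.86, 3.51, 3.64 and 3.68 in scrambled arrays, below background on each array, and its other 2 probe sets had lower means.

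Of the adaptors, Mavs was at 8.24, 8.31, 8.30, 8.37 and 8.37 in antisense and at 8.25, 8.10, 8.18, 8.20 and 8.26 in scrambled arrays. All antisense arrays except replicate 1 lay above every scrambled array. The groups differed by 0.12 (SE 0.0430), with limma adjusted p = 0.234 (0.167 with the replicate block), and a second probe set was at 0.05. Myd88, the adaptor of most Toll-like receptors, averaged 7.42 ± 0.046 (SD, n = 5) in antisense and 7.44 ± 0.032 (SD, n = 5) in scrambled arrays. Trim25, a ubiquitin ligase that acts on RIG-I, was at 10.28, 10.29, 10.34, 10.40 and 10.42 in antisense and at 10.42, 10.32, 10.40, 10.38 and 10.37 in scrambled arrays. Its difference was -0.03 (SE 0.0412, adjusted p = 0.844), while its other probe sets were at 0.01 and 0.21, so the sign for Trim25 depends on the probe set.

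The transcription factors were all above background, Irf7 by the smallest margin (4.80 in antisense and 4.76 in scrambled arrays, as means). Irf9, the DNA-binding part of the interferon-activated complex, was at 6.07, 6.19, 6.09, 6.08 and 6.10 in antisense and at 6.02, 5.98, 6.07, 5.99 and 6.004 in scrambled arrays. It was the only one of the 23 tested genes whose groups did not overlap (3.92% of all genes tested), and the margin between antisense replicate 1 and scrambled replicate 3 lies below the second decimal. The difference was 0.09 (SE 0.0377, limma adjusted p = 0.310). Stat2, its partner in that complex, was at -0.06 (adjusted p = 0.703) and at -0.03 on a second probe set.

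Irf3, which is activated by phosphorylation and present before any stimulus, was at 9.38, 9.38, 9.37, 9.38 and 9.43 in antisense and at 9.39, 9.40, 9.39, 9.40 and 9.44 in scrambled arrays. Its values spread by an SD of 0.0229 in antisense and 0.0215 in scrambled arrays. The antisense array was the lower in 5 of 5 pairs, though the groups overlap. The difference was -0.02 (SE 0.0330, limma adjusted p = 0.899). The brightest Irf3 probe set is of a type that may cross-hybridise, and the other 3 were at -0.02, 0.04 and 0.0009. Irf1, an interferon-inducible activator, was at 8.40, 8.19, 8.33, 8.38 and 8.41 in antisense and at 8.42, 8.44, 8.46, 8.38 and 8.35 in scrambled arrays. Antisense replicates 2 and 3 lay below every scrambled array and the other antisense arrays among them (difference -0.07, SE 0.0469, adjusted p = 0.603).

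The receptor subunits had close group means. Ifnar1 averaged 6.96 ± 0.042 (SD, n = 5) in antisense and 6.98 ± 0.070 (SD, n = 5) in scrambled arrays. Ifnar2 averaged 8.08 ± 0.12 (SD, n = 5) and 8.06 ± 0.054 (SD, n = 5). Their differences were -0.01 and 0.02 (limma adjusted p = 0.944 and 0.930), and the other Ifnar2 probe sets above background were at 0.15 and 0.01.

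Among the stimulated genes, Xaf1, an interferon-inducible gene that promotes cell death, had the largest difference of the 23. It was at 5.01, 4.73, 4.86, 4.93 and 4.85 in antisense and at 4.54, 4.76, 4.84, 4.62 and 4.78 in scrambled arrays. The groups overlap through antisense replicate 2, and the level is close to background. The difference was 0.17 (SE 0.0645), a 1.12-fold difference, with a limma adjusted p of 0.278 and of 0.293 with the replicate block. A second Xaf1 probe set, below background, was at -0.09. Ifit2, an RNA-binding antiviral protein, averaged 5.47 ± 0.071 (SD, n = 5) in antisense and 5.36 ± 0.098 (SD, n = 5) in scrambled arrays (difference 0.11, adjusted p = 0.391, and 0.224 with the replicate block), higher in antisense in 5 of 5 pairs. Its neighbours in the same gene cluster, Ifit1 and Ifit3, were below background in both groups, with differences of -0.05 and 0.01.

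Ifi35, an interferon-induced protein, was at 8.18, 8.17, 8.31, 8.43 and 8.34 in antisense and at 8.32, 8.20, 8.26, 8.26 and 8.34 in scrambled arrays. The antisense arrays spanned the scrambled ones on both sides, and the difference was 0.01 (SE 0.0529, limma adjusted p = 0.962). Rsad2 (viperin, a radical SAM enzyme) and Bst2 (tetherin, which holds budding virions at the cell surface) were both at -0.10, with adjusted p of 0.502 and 0.567. Rsad2 was lower in the antisense array of all 5 same-numbered pairs, although the groups overlap. Tap1, a peptide transporter of antigen presentation, was at -0.02 and Mx2, a dynamin-like antiviral GTPase, at 0.01. The other probe sets of Rsad2 (means 3.76 and 3.47) and of Tap1 (4.30, 2.97 and 2.58) were below background. Below or, for Usp18, across the background level, Mx1 was at -0.11, Rtp4 at -0.10, Usp18, the protease that removes ISG15 and dampens receptor signalling, at 0.05, Oasl1 at 0.05, Oasl2 at 0.01 and Parp14 at 0.0004.

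The chemokine Cxcl10, a T-cell attractant that interferon induces, was at 5.44, 5.47, 5.43, 5.49 and 5.55 in antisense and at 5.51, 5.58, 5.56, 5.72 and 5.79 in scrambled arrays. In each of the 5 pairs the antisense array was the lower, but antisense replicate 5 exceeded scrambled replicate 1. The difference was -0.15 (SE 0.0545, limma adjusted p = 0.234), and with 1 array left out it ranged from -0.18 to -0.11. Ccl5 averaged 4.86 ± 0.175 (SD, n = 5) in antisense and 4.93 ± 0.151 (SD, n = 5) in scrambled arrays (difference -0.07, adjusted p = 0.803).

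Of the 60 probe sets of these genes, 37 lay above background, and their differences ran from -0.15 (Cxcl10) to 0.21 (the third Trim25 probe set). For 8 genes several probe sets lay above background. The sign was the same throughout for Ifi35, Ifnar2, Mavs and Stat2 and mixed for Ddx58, Eif2ak2, Irf3 and Trim25.

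Scrambled replicate 5 was high for several of the stimulated genes and chemokines, a pattern picked out after its values were seen. For the 9 tested stimulated genes and chemokines, the median deviation from a gene's mean over all arrays was 0.17 on that array and between -0.07 and 0.07 on the other 9 arrays. That array held the highest value of 5 of these 9 genes (Mx2, Rsad2, Tap1, Cxcl10 and Ccl5), and of 11.7% of all genes tested. Over the 37 other stimulated genes tested it was high together with antisense replicate 5, not alone. Its median deviation was 0.07 and that of antisense replicate 5 was 0.09, against -0.08 to 0.03 on the other arrays. Scrambled replicate 5 and antisense replicate 5 each held the highest value of 11 of these genes, and no other array of more than 4. Rtp4, below background on average, was at 5.02 on scrambled replicate 5 and between 4.28 and 4.54 on the others. Ifit2 had its lowest value, 5.21, on the same array. Without scrambled replicate 5 the difference was -0.11 for Cxcl10 (limma adjusted p = 0.373) and -0.07 for Rsad2, and that of Tap1 turned from -0.02 to 0.04, that of Oas1a from -0.01 to 0.02 and that of Rtp4 from -0.10 to 0.02.

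**Figure D3:**
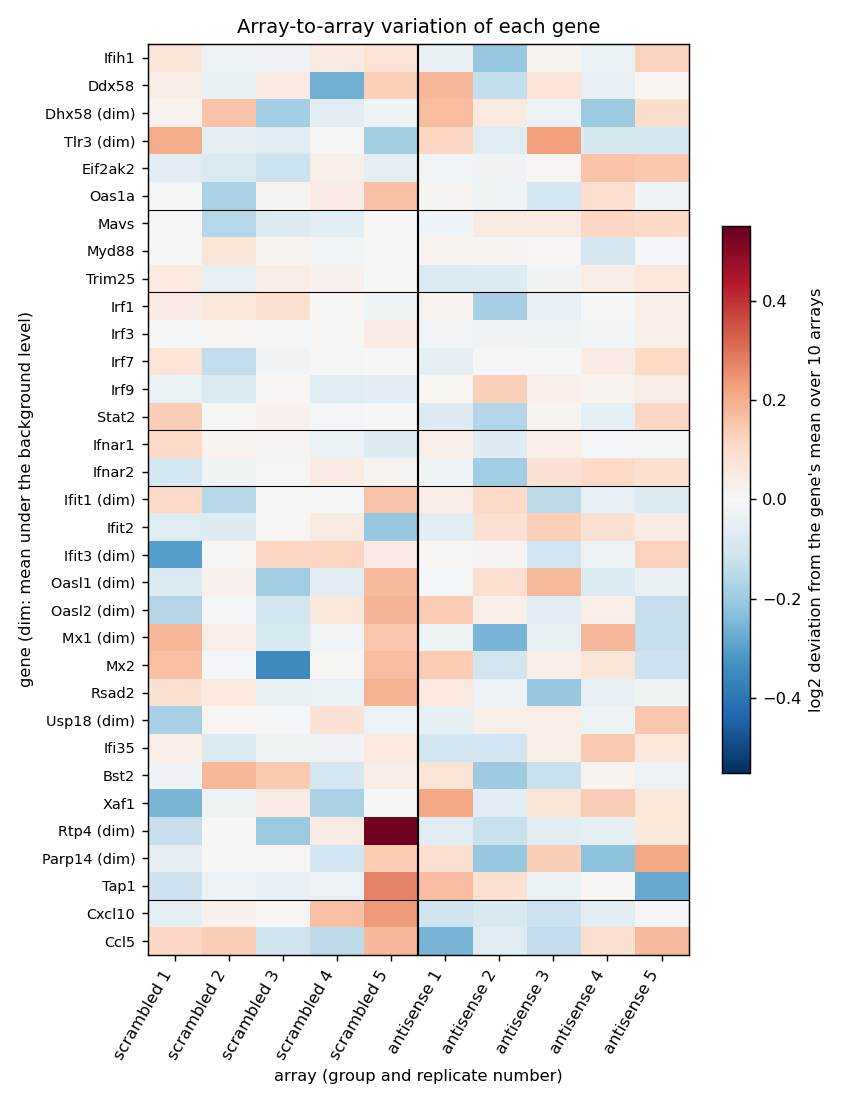
Deviation of each of the 33 genes from its own mean over 10 arrays (colour, log2 scale), with genes in rows by role and arrays in columns; dim marks genes whose mean lies under the background level. The column of scrambled replicate 5 is red for Mx2, Rsad2, Rtp4, Tap1, Cxcl10 and Ccl5, and the strongest colour is that of Rtp4, at 0.53 above its mean.

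The rest of the pathway was read from a list of 126 further genes, of which 112 had a probe set and 88 were tested. Of the 88, 1 rose (1.16% of all genes tested rose) and none fell (0.372% of all genes fell). At an unadjusted p under 0.05 there were 5 higher and 4 lower, 10.2% of the 88 against 12.9% of all genes. The gene that rose was Pml, an interferon-inducible organiser of nuclear bodies. Pml was at 8.21, 8.35, 8.38, 8.28 and 8.27 in antisense and at 8.12, 8.07, 7.98, 7.99 and 7.94 in scrambled arrays. The groups did not overlap, and the difference was 0.28 (SE 0.0468, limma adjusted p = 0.0124), a 1.21-fold difference, with a second probe set above background at 0.26. With the mean of all 3 Pml probe sets, 1 of them below background, the difference was 0.16 and the adjusted p 0.136.

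With the replicate block 3 of the 88 genes passed, 2 higher and 1 lower (2.0% and 1.04% of all genes). Beside Pml these were Ccl2, a monocyte attractant, and Ifngr2, a subunit of the interferon-gamma receptor. Ccl2 averaged 7.99 ± 0.10 (SD, n = 5) in antisense and 7.68 ± 0.18 (SD, n = 5) in scrambled arrays, a difference of 0.32 (limma adjusted p = 0.0687, and 0.0249 once blocked). Ifngr2 was at 10.40, 10.11, 10.17, 10.26 and 10.33 in antisense and at 10.44, 10.38, 10.45, 10.57 and 10.59 in scrambled arrays, lower in all 5 pairs, though antisense replicate 1 exceeded scrambled replicate 2. Its difference was -0.23 (adjusted p = 0.0871 without and 0.0409 with the block), and a second Ifngr2 probe set was at -0.03. Both also passed with limma's trend option (0.0357 and 0.0349). Without the block, Ccl2 passed without scrambled replicate 4 (adjusted p = 0.0456) and Ifngr2 without antisense replicate 1 (adjusted p = 0.0499).

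By list, none of the 22 tested genes of sensing and signalling passed, with or without the block. Ikbke, a kinase that phosphorylates Irf3 and Irf7, was at 0.16 (limma adjusted p = 0.210) and its relative Tbk1 at -0.02. The DNA sensor Cgas makes a cyclic dinucleotide, and Sting1 is the receptor of that molecule. Both genes were above background in both groups, with differences of -0.03 for Cgas and -0.01 for Sting1. For Sting1 this was narrow (4.62 in each group as a mean) and below the olfactory receptor level of 4.65. A second Sting1 probe set, below background, averaged 3.62. Adar, which edits double-stranded RNA, was at 0.06. Of 17 tested interferons, receptors and JAK-STAT genes none passed in the main test, and Ifngr2 passed under the alternatives given above. Socs1, the feedback inhibitor of JAK kinases, was at 0.24 (adjusted p = 0.232). The interferon gene Ifnb1 was below background in both groups (4.46 in antisense and 4.48 in scrambled arrays). Among 37 further stimulated genes were Tnfsf10 at -0.22, Slfn2 at 0.12 and Oas1b at -0.15 (adjusted p from 0.228 to 0.309). Tnfsf10 lay close to background (4.94 as a mean over all arrays). Its other probe sets, below background, were at -0.02 and 0.05. None of 12 antigen presentation genes passed, and the median difference of that list was 0.03.

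**Figure D4:**
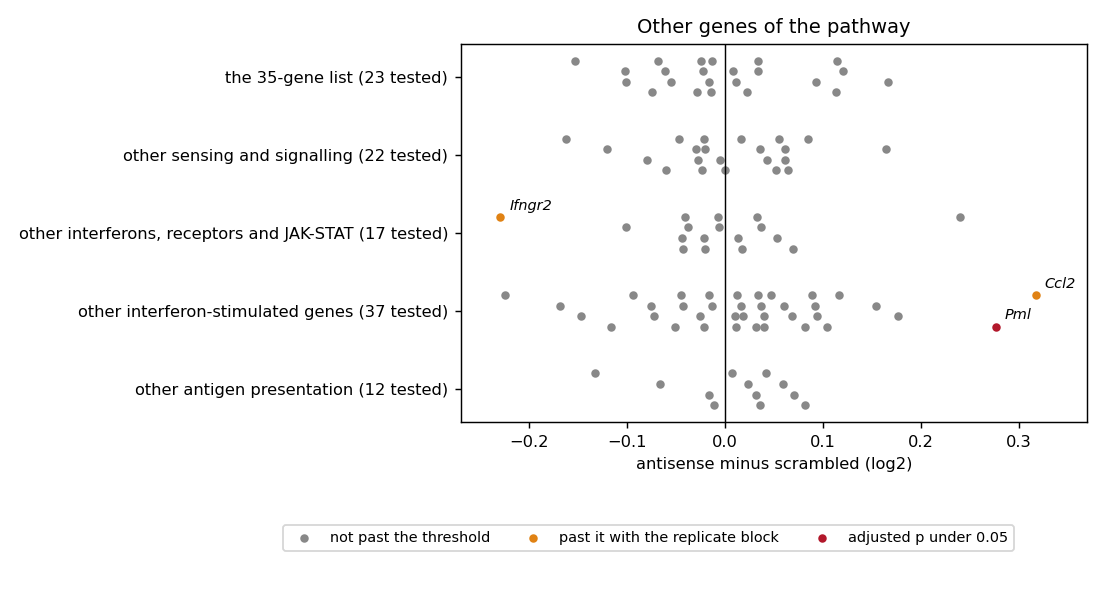
Difference of each tested gene, antisense minus scrambled on the log2 scale (horizontal axis), for the 35-gene list and 4 lists of other pathway genes; each point is a gene, placed at staggered heights within its list for legibility. Pml at 0.28 is the only gene past the threshold, and Ccl2 at 0.32 and Ifngr2 at -0.23 pass with the replicate block.

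The cells carried the markers of liver epithelium: all 10 measured markers were above background in both groups, among them Krt8 (13.76 in antisense and 13.77 in scrambled arrays) and Hnf4a (10.67 and 10.69), with Alb close to background (4.70 and 4.73). Of 10 blood and macrophage markers, 4 (Ptprc, Adgre1, Itgam and Tyrobp) were below background in both groups and 6 were above it in both. The 6 were Csf1r (6.47 in antisense and 6.41 in scrambled arrays), Cd68 (5.86 and 5.47), Siglech (5.36 and 5.43), Lyz2 (5.26 and 5.23), Fcgr1 (4.83 and 4.88) and Cx3cr1 (4.64 and 4.57). The summed level of that list was 8.29 to 8.43 in antisense and 8.21 to 8.43 in scrambled arrays. Cd68, a lysosomal glycoprotein of macrophages, rose by 0.39 (limma adjusted p = 0.0176, and 0.0525 and 0.0551 without antisense replicate 3 or 4), and its part in the other values was not tested. The summed level was 7.19 to 7.37 in antisense and 7.13 to 7.31 in scrambled arrays for 5 endothelial markers, and 7.62 to 7.79 and 7.64 to 7.70 for 7 mesenchymal ones, and no marker of either list passed.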

How the data were processed

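Array values of 10 mouse samples, 5 per group, were used as the authors deposited them: expression on the log2 scale for every probe set, with array medians from 5.21 to 5.24 and a highest value of 14.18. The log2 scale was read from the values. How probe sets were summarised, background-corrected and normalized is not stated in the labels used. Probe sets were named from the platform annotation, which gives 1 symbol for 34945, several for 932 and does not list 9160. Symbols were updated by gene identifier to RefSeq (34741 matched). The brightest probe set was kept for each of 18193 genes, and the 12633 genes with a mean of at least 4.56, the 40% level, were tested.

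Tests used lmFit and eBayes of limma 3.58.1 (R 4.3.3), two-sided at 0.05 and adjusted by Benjamini-Hochberg over all genes tested. The procedure was tested on simulated data. The number of arrays limits the precision. Marker levels were summed on the linear scale. Figures used matplotlib 3.10.9.

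The members and lists were chosen with earlier results of these data known. Values of each array are given for the 4 members with the smallest p, the 4 brightest and 5 sensors, the others by means. Of the other pathway genes, those past the threshold, the 8 with the smallest p and a few fixed genes are named, and some listed genes are not reported here. Both groups carry replicate numbers 1 to 5. The main tests did not use these numbers, and a block on them was only an alternative. After subtracting group means, arrays with the same number correlated at 0.172, 0.377, 0.112, 0.152 and 0.335, against -0.312 to 0.231 for other pairs. For replicates 1 and 3 at least 1 array of the pair correlated best with an array of another number. Of the 5 values, 3 lie within the range of the other pairs. Any pairing by number rests on the values, as no label says what the numbers mark. Alternatives were this block, other normalizations, filters, probe set rules and background levels, and leaving out each array.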

Additional observations from a re-analysis of the deposited data

Results flagged for a closer look

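In 8 of 92 groups of 5 arrays, 1 array lay far from the other 4 for a gene named above, and chance gives about 1 in 20. Antisense replicate 4 was lowest for Myd88, at 7.34 against 7.42 for the nearest array, and for Cgas, at 5.50 against 5.74. Antisense replicate 5 was highest for Irf3, at 9.43 against 9.38, and antisense replicate 2 for Irf9, at 6.19 against 6.10. Scrambled replicate 1 was highest for Stat2, at 7.003 against 6.89, and lowest for Ifit3, at 3.62 against 3.93, a level below background. Scrambled replicate 5 was highest for Tap1, at 5.92 against 5.61, and scrambled replicate 3 lowest for Adar, at 8.22 against 8.28. The flags fall on 6 different arrays.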

How the results depend on the processing

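No tested member passed the threshold under any of the 17 alternatives, where the lowest adjusted p was 0.0845 (Cxcl10, replicate block). Of 379 member values under them 17 had another sign, and 14 of 23 members kept their sign throughout. With the mean of probe sets Trim25 was at 0.0631 and Irf3 at 0.00186. With 1 array left out, differences ranged from -0.0279 to 0.0710 for Ddx58, -0.0232 to 0.0396 for Ifi35, -0.0339 to 0.0121 for Ifnar1, -0.00156 to 0.0724 for Ifnar2, -0.0784 to 0.0523 for Mx2, -0.0594 to 0.0242 for Oas1a, -0.0674 to 0.0436 for Tap1, -0.0717 to 0.0249 for Cgas and -0.0527 to 0.0422 for Sting1. Sting1 was at 0.000638 after quantile normalization. Over all genes the count of calls was 193, 385 with the replicate block and 314 with limma's trend option. It ranged from 92 to 202 with 1 array left out and was 95, 92 and 123 without antisense replicates 3, 4 and 5 and 101 without scrambled replicate 3. Of the other pathway genes 3 passed with the block and 3 with the trend option, 0 with the mean of probe sets, and 1 to 2 with 1 array left out. The background level of 60% left 14 members above it. The block changed no other call of a gene named here. The causes were not tested. Signal over background limits the 10 dim members and the tested members close to background.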
